A study of Mus musculus with 4 samples.

Results

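The fibrillar collagens described here are 6 genes out of the 32285 in the count tables: Col1a1 and Col1a2, which encode both chains of type I collagen, Col3a1, which encodes the single chain of type III collagen, and Col5a1, Col5a2 and Col5a3, which encode chains of type V collagen. They were taken by gene symbol and followed in 4 cell classes of mouse hindlimb muscle. Type I collagen forms the thick, stiff fibrils of tendon, bone and scar, type III forms finer fibrils that often share a fibril with type I, and type V starts fibrils and limits their width. The chains are made as procollagens, folded and hydroxylated in the endoplasmic reticulum, exported, trimmed at their ends and cross-linked outside the cell. In skeletal muscle they build the sheaths around fibres and bundles, and fibro-adipogenic progenitors (FAPs), the resident fibroblast-like cells, are their best known source.

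The cells came from male C57Bl/6J mice in which 1 hindlimb received 3 X-ray fractions of 8.2 Gy at 5 weeks of age. The groups were irradiated limbs (IR) removed 24 hours after the final fraction, shielded opposite limbs (CON) of that time, IR limbs removed 56 days after irradiation, and CON limbs of that time. CON limbs belonged to irradiated mice, and no limb of an unirradiated animal was analysed here. Each group was 1 droplet library made from 3 pooled limbs, from which fat and connective tissue had been trimmed and live cells with a single nucleus sorted, so animals cannot be told apart and no test between groups was possible.

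The kept barcodes numbered 2539 in IR and 1336 in CON at 24 hours, and 969 in IR and 1700 in CON at 56 days, with 4543545 to 9751722 unique molecular identifiers (UMIs, counted molecules) per library and medians of 3057 to 3627 per cell. Pairs of libraries shared 1 to 3 cell barcodes. Cells were assigned to classes by marker genes, none of them a collagen: a cell needed at least 3 markers of its own class and at most 1 of any other list. The classes are called FAP-like, mural-like (pericytes and vascular smooth muscle), Schwann-like (glia of peripheral nerve) and endothelial-like. The FAP-like cells numbered 52 in IR and 35 in CON at 24 hours, and 31 in IR and 76 in CON at 56 days, and all 12 FAP markers, Pdgfra, Dcn and Pi16 among them, were found in each library. The mural-like cells numbered 133 in IR and 36 in CON at 24 hours, and 57 in IR and 50 in CON at 56 days. The Schwann-like cells numbered 124 in IR and 52 in CON, then 53 in IR and 61 in CON, and the endothelial-like cells 1360 in IR and 428 in CON, then 439 in IR and 725 in CON. Cells that belonged to no class held 41% to 62.4% of the fibrillar collagen UMIs of a library, with 5971 CPM in IR and 4584 CPM in CON at 24 hours and 4052 CPM in IR and 5585 CPM in CON at 56 days, so the values below describe the assigned cells and not the whole limb. Levels are UMIs per 1000000 UMIs of the class (CPM). A range after a level, ratio or share is a 95% interval that covers counting error only, which is narrower than the spread between animals would be.

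The genes lie on 5 chromosomes of the mouse genome (GRCm38, GENCODE annotation). Col1a1 (ENSMUSG00000001506) spans chr11:94936224-94953042 on the plus strand, and Col1a2 (ENSMUSG00000029661) spans chr6:4504814-4541544 on the plus strand. Col3a1 (ENSMUSG00000026043) spans chr1:45311538-45349706 on the plus strand, and Col5a2 (ENSMUSG00000026042) lies beside it at chr1:45374321-45503282 on the minus strand. Col5a1 (ENSMUSG00000026837) spans chr2:27886425-28039514 on the plus strand, and Col5a3 (ENSMUSG00000004098) spans chr9:20770050-20815067 on the minus strand. On the same strand, 1 other annotated gene overlaps each of Col1a2, Col3a1 and Col5a2.

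The 150 bases before the annotated start are shown for the 3 members with a usable RefSeq promoter entry (GRCm38.p6), in the strand of the gene. Their relation to the levels was not tested. The windows are chr1:45311388-45311537 for Col3a1, chr2:27886275-27886424 for Col5a1 and chr9:20815068-20815217 for Col5a3. Capitals mark matches, on either strand, to the word CCAAT, to the word TATAA and to the word GGGCGG, with overlapping matches counted.
Col3a1: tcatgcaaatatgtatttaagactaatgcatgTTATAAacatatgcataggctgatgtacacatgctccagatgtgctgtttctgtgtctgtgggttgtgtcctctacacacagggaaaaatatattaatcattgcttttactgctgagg
Col5a1: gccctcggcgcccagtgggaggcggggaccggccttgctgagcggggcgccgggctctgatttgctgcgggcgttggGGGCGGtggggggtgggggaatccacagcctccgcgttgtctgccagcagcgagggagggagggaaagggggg
Col5a3: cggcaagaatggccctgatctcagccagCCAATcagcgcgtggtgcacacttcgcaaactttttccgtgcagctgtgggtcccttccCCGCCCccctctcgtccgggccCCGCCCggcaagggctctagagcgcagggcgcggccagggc
Col3a1 held 2 TATAA matches, 1 on each strand and overlapping, Col5a1 held 1 GGGCGG, and Col5a3 held 1 CCAAT and 2 GGGCGG. Among 32851 mouse promoters of this length, 24.5% held CCAAT, 14.2% held TATAA and 28.6% held GGGCGG.

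FAP-like cells held by far the highest fibrillar collagen level of the 4 classes, and mural-like and Schwann-like cells held far lower levels. The 6 genes summed to 26575 CPM in IR and 39438 CPM in CON FAP-like cells at 24 hours, and to 10976 CPM in IR and 15476 CPM in CON at 56 days. In Schwann-like cells the sum was 2371 CPM in IR and 2948 CPM in CON at 24 hours, and 2269 CPM in IR and 1496 CPM in CON at 56 days. In mural-like cells it was 1717 CPM in IR and 1540 CPM in CON at 24 hours, and 1232 CPM in IR and 1700 CPM in CON at 56 days. FAP-like cells ranked first in every library, while Schwann-like and mural-like cells changed places: Schwann-like cells were higher in 3 libraries and mural-like cells in CON at 56 days. Endothelial-like cells had 40 CPM in IR and 27.5 CPM in CON at 24 hours, and 21.3 CPM in IR and 23.8 CPM in CON at 56 days. Immune cells, which are not known as a source of these collagens, had 8.09 to 15.2 CPM. In CON at 24 hours Col5a3 gave 21 of their 31 UMIs, a mix unlike that of FAP-like cells, so their level is not a measure of free RNA alone.

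**Figure D1:**
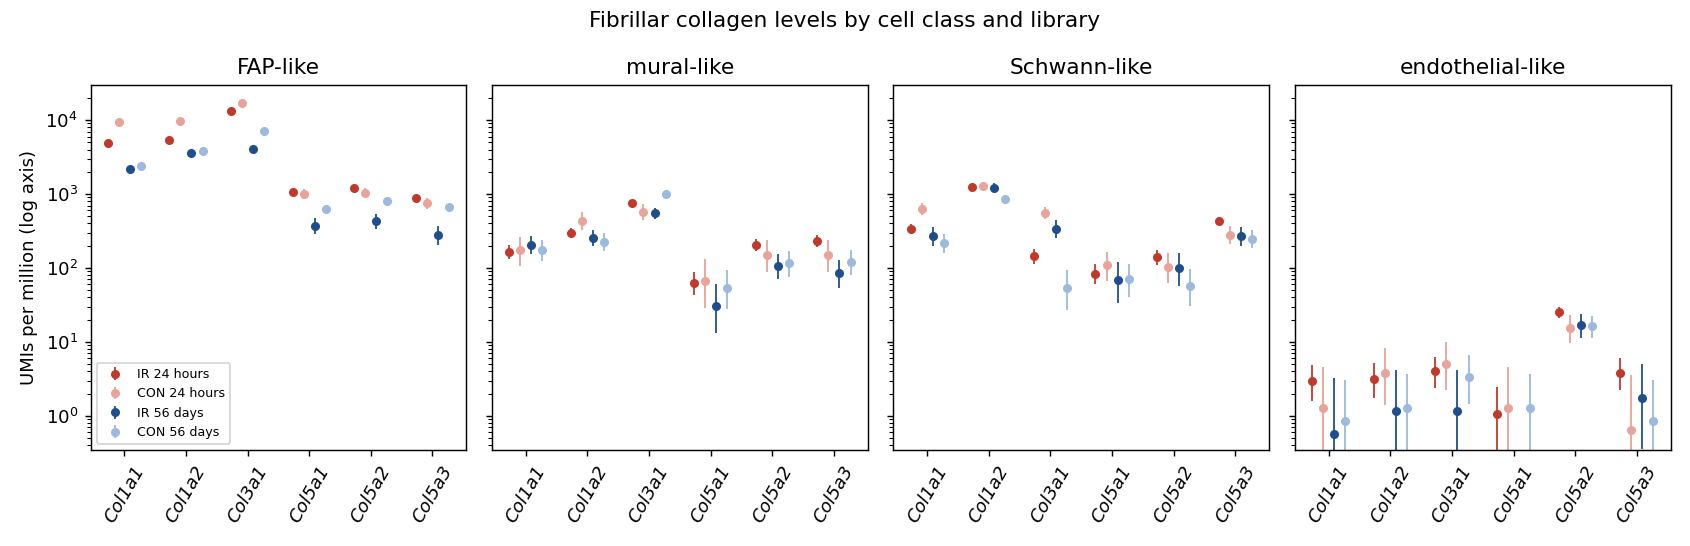
Level of each fibrillar collagen (CPM, log axis) in FAP-like, mural-like, Schwann-like and endothelial-like cells, with 1 point per library and 95% counting intervals. Within each library FAP-like cells lie above the other classes for every gene. For Col5a3 in IR at 56 days the difference from Schwann-like cells is within counting error (281 CPM against 271 CPM). Schwann-like cells of IR at 24 hours, at 435 CPM of Col5a3, lie above those FAP-like cells. Col5a2 is the highest gene in endothelial-like cells. A gene with 0 UMIs, Col5a1 in endothelial-like cells of IR at 56 days, has no point.

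The collagens were mixed differently in each class. In FAP-like cells Col3a1 gave most UMIs of the 6 genes in each library, with 49.9% in IR and 43.6% in CON at 24 hours and 37.6% in IR and 45.9% in CON at 56 days. Mural-like cells were also led by Col3a1, at 44.1% in IR and 37.1% in CON at 24 hours and 44.7% in IR and 59.4% in CON at 56 days. Schwann-like cells were led by Col1a2, at 51.7% in IR and 42.9% in CON at 24 hours and 53.8% in IR and 56.8% in CON at 56 days. Over the class as a whole, 1 chain gene of type I collagen thus exceeded the other, by an amount that differed between Schwann subtypes (below). They had 3.60 Col1a2 UMIs per Col1a1 UMI in IR (3.04 to 4.28) and 2.01 in CON (1.61 to 2.52) at 24 hours, and 4.50 in IR (3.23 to 6.39) and 3.92 in CON (2.85 to 5.48) at 56 days. In FAP-like cells the same ratio was 1.10 in IR and 1.03 in CON at 24 hours, and 1.65 in IR and 1.58 in CON at 56 days, below the Schwann-like value in every library. Endothelial-like cells were led by Col5a2, which gave 62.6% of the 6 genes' UMIs in IR and 55.8% in CON at 24 hours, and 78.4% in IR and 67.9% in CON at 56 days.

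**Figure D2:**
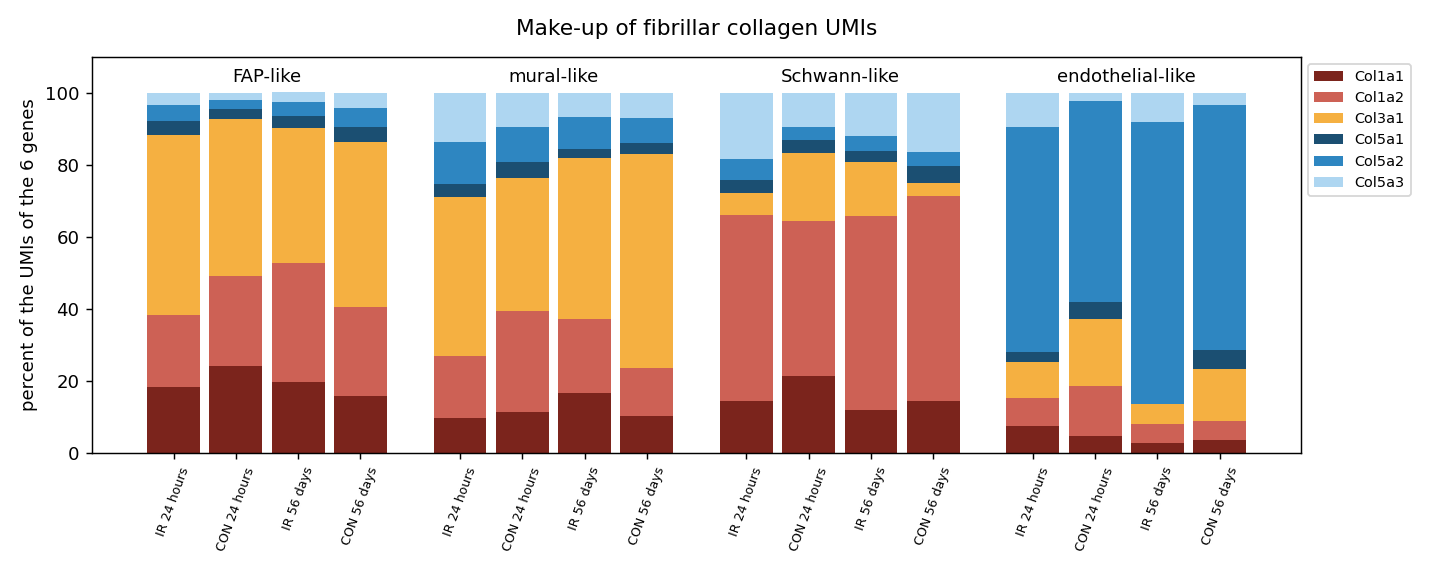
Share of each gene among the UMIs of the 6 fibrillar collagens (percent, stacked to the whole), with 1 bar per cell class and library. Col3a1 takes most in FAP-like and mural-like bars, Col1a2 takes 42.9% to 56.8% of Schwann-like bars, and Col5a2 takes 55.8% to 78.4% of endothelial-like bars.

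At 24 hours, the type I collagen genes were lower in IR than in CON FAP-like cells, Col3a1 was lower by less, and the type V genes did not differ beyond counting error. Col1a1, the alpha 1 chain of type I, had 4832 CPM in IR and 9553 CPM in CON, a ratio of 0.506 (0.473 to 0.541). Col1a2, the alpha 2 chain, had 5337 CPM in IR and 9866 CPM in CON, a ratio of 0.541 (0.507 to 0.577). Both chains of type I were thus lower in IR by close amounts. Col3a1 had 13258 CPM in IR and 17206 CPM in CON, a ratio of 0.771 (0.736 to 0.806). The cell with most Col3a1 UMIs held 18.3% of them in IR and 12.4% in CON. The cell medians of Col3a1, 7612 CPM in IR and 16280 CPM in CON, were further apart than these summed levels. So were those of Col1a1, 3610 CPM in IR and 9341 CPM in CON. Col5a1, the chain common to most type V molecules, had 1054 CPM in IR and 1011 CPM in CON, a ratio of 1.04 (0.872 to 1.25). The partner chain Col5a2 had 1211 CPM in IR and 1044 CPM in CON, a ratio of 1.16 (0.976 to 1.38), and Col5a3, the chain of more restricted tissue range, had 883 CPM in IR and 758 CPM in CON, a ratio of 1.16 (0.95 to 1.43). Of the 6 genes, 2 were at least 1.5-fold lower and 0 at least 1.5-fold higher, while 13.1% of the 4433 genes measured in these cells (at least 20 UMIs over both libraries) were lower and 22.1% higher by that much. The 6 genes summed gave a ratio of 0.674 (0.653 to 0.695). IR and CON lay closer in cells outside every class with at least 3 FAP markers but fewer than 3 tenocyte markers (28 in IR and 26 in CON). There Col1a1 had 2862 CPM in IR and 3480 CPM in CON, and Col3a1 had 7568 CPM in IR and 7476 CPM in CON. The sum in those cells was 16005 CPM in IR and 16998 CPM in CON, so the ratios above hold for the assigned cells only.

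The type V values at 24 hours depended on how cells were weighted. With every cell given equal weight, the ratios were 0.794 for Col5a1, 1.06 for Col5a2 and 0.799 for Col5a3, and among the cells with no marker of another list Col5a3 had a ratio of 0.454, so no direction is given for these genes. The median depth of these cells was 6142 UMIs in IR and 2869 UMIs in CON, and its part in the result was not tested. Under every setting tried, Col1a1 stayed lower in IR, between 0.401 and 0.535. Summed FAP markers had 22791 CPM in IR and 28061 CPM in CON, so the marker list was also lower in IR. The tenocyte markers in these cells had 179 CPM in IR and 736 CPM in CON, carried in CON mostly by Comp (0 UMIs in IR and 111 in CON) and in IR by Thbs4 (63 UMIs in IR and 23 in CON), while Scx, Tnmd, Fmod and Mkx were at 0 UMIs in both libraries. The gate allowed at most 1 tenocyte marker per cell, and the part of these markers in the result was not tested.

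At 56 days the pattern across the genes was the opposite one: the type I genes lay within counting error of CON, and the type III and type V genes were lower in IR. Col1a1 had 2173 CPM in IR and 2430 CPM in CON, a ratio of 0.894 (0.794 to 1.01), and Col1a2 had 3596 CPM in IR and 3839 CPM in CON, a ratio of 0.937 (0.854 to 1.03). Col3a1 had 4123 CPM in IR and 7106 CPM in CON, a ratio of 0.580 (0.534 to 0.629). All 3 type V genes were lower in IR. Col5a1 had 375 CPM in IR and 628 CPM in CON, a ratio of 0.597 (0.448 to 0.783). Col5a2 had 428 CPM in IR and 807 CPM in CON, a ratio of 0.530 (0.407 to 0.682), and Col5a3 had 281 CPM in IR and 665 CPM in CON, a ratio of 0.423 (0.306 to 0.574). Of the 6 genes, 4 were at least 1.5-fold lower and 0 at least 1.5-fold higher, against 21.3% lower and 18% higher among the 5247 measured genes. Among the 13 IR and 19 CON cells with no marker of another list, the type I genes were also lower in IR, at 0.714 for Col1a1 and 0.717 for Col1a2. Summed FAP markers had 33736 CPM in IR and 32038 CPM in CON, so the FAP marker list was not lower. The tenocyte markers in these cells were lower in IR, at 135 CPM in IR and 284 CPM in CON, mostly from Thbs4 (23 UMIs in IR and 117 in CON) and Comp (0 UMIs in IR and 18 in CON), and their part in the result was not tested.

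**Figure D3:**
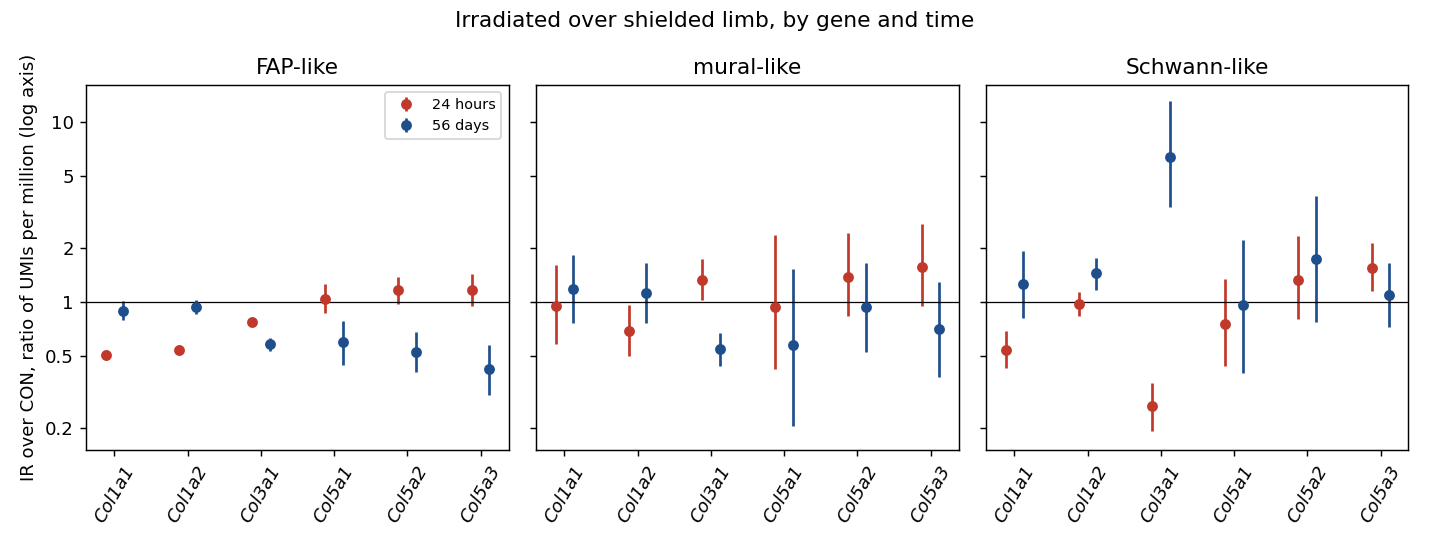
Ratio of the IR to the CON level (log axis) for each fibrillar collagen in FAP-like, mural-like and Schwann-like cells, at 24 hours (red) and 56 days (blue), with 95% counting intervals. In FAP-like cells the type I genes lie near 0.5 at 24 hours and near 1 at 56 days, while the type V genes do the reverse, and Col3a1 in Schwann-like cells lies on opposite sides of 1 at the 2 times.

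The balance of type III to type I UMIs therefore differed in opposite directions at the 2 times. FAP-like cells had 2.74 Col3a1 UMIs per Col1a1 UMI in IR (2.60 to 2.90) and 1.80 in CON (1.70 to 1.91) at 24 hours. At 56 days they had 1.90 in IR (1.67 to 2.16) and 2.92 in CON (2.74 to 3.12). The CON libraries also differed from each other by more than either IR library differed from its CON in the type I genes. The CON mice of 56 days, older than those of 24 hours, had 0.254 times the Col1a1 level of the 24-hour CON mice, 0.389 times their Col1a2 level and 0.413 times their Col3a1 level. For the type V genes the same ratio was 0.622 for Col5a1, 0.773 for Col5a2 and 0.877 for Col5a3, so the type I genes differed most. The age of the mice and the library cannot be told apart in this comparison, and the CON libraries that set these values also stand in the IR ratios.

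Single FAP-like cells spread widely. Per cell, Col1a1 ran from 0 to 14950 CPM in IR and from 0 to 63356 CPM in CON at 24 hours, with medians of 3610 CPM in IR and 9341 CPM in CON. At 56 days it ran from 0 to 10764 CPM in IR and from 0 to 15188 CPM in CON, with medians of 2201 CPM in IR and 2158 CPM in CON. The medians of Col3a1 were 7612 CPM in IR and 16280 CPM in CON at 24 hours, and 2843 CPM in IR and 5818 CPM in CON at 56 days. The cells of IR and CON overlapped at both times for both genes. The cell with most UMIs of the 6 genes held 15% of them in IR and 12.3% in CON at 24 hours, and 14% in IR and 4.74% in CON at 56 days. At least 1 Col3a1 UMI was found in 94.2% of IR and 94.3% of CON FAP-like cells at 24 hours and in 90.3% of IR and 96.1% of CON cells at 56 days, against 0.528% to 2.22% of immune cells, which had medians of 3274 to 4607 UMIs per cell where FAP-like cells had 2869 to 6442 UMIs.

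**Figure D4:**
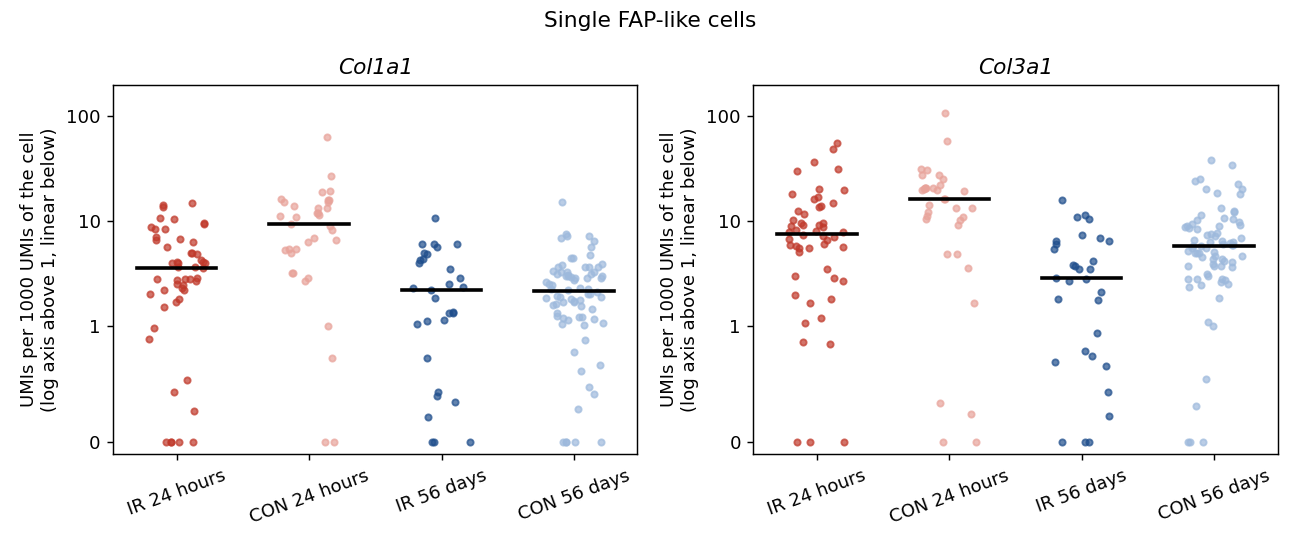
Col1a1 and Col3a1 in single FAP-like cells (UMIs per 1000 UMIs of the cell, linear below 1 and log above), with 1 point per cell and a black bar at the median. For Col1a1 the medians are 3610 CPM in IR and 9341 CPM in CON at 24 hours, and 2201 CPM in IR and 2158 CPM in CON at 56 days, and the clouds overlap.

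FAPs are known in a Pi16 type, found near vessels and fascia, and a Cxcl14 type, found among the fibres, and cells were split by which 6-gene list they matched better, leaving out those that matched both equally. Of FAP-like cells, 39 in IR and 24 in CON at 24 hours and 13 in IR and 41 in CON at 56 days were of the Pi16 type. In Pi16-type cells the 6 genes summed to 29720 CPM in IR and 40388 CPM in CON at 24 hours, and to 10895 CPM in IR and 14983 CPM in CON at 56 days. In Cxcl14-type cells they summed to 15966 CPM in IR (11 cells) and 43686 CPM in CON (10 cells) at 24 hours, and to 11077 CPM in IR (18 cells) and 17668 CPM in CON (25 cells) at 56 days. The sum was lower in IR within both types at both times. Col1a1 within Pi16-type cells was 5196 CPM in IR and 9483 CPM in CON at 24 hours, and 2228 CPM in IR and 2489 CPM in CON at 56 days, the same order as over all FAP-like cells.

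Genes that fold, export, cross-link, bind and degrade collagen were read from 7 lists of 66 genes in the same cells. In FAP-like cells at 24 hours, 3 of 12 measured fibril-associated genes were lower and 1 higher by at least 1.5-fold, with a median log2 ratio of -0.07 against 0.08 over all measured genes. Postn, which encodes the matrix protein periostin, had 255 CPM in IR and 764 CPM in CON, a ratio of 0.334 (0.254 to 0.438). Sparc, which encodes a collagen-binding matrix protein, had 8137 CPM in IR and 12712 CPM in CON, a ratio of 0.640 (0.606 to 0.676). Of 15 folding and modification genes, 4 were lower and 3 higher, beside the 13.1% lower and 22.1% higher of all measured genes. The lower ones included P4ha2, a prolyl 4-hydroxylase subunit (42.0 CPM in IR and 104 CPM in CON), Fkbp10, a collagen chaperone (58.9 CPM in IR and 154 CPM in CON), and P3h3, of the prolyl 3-hydroxylase family (53.3 CPM in IR and 110 CPM in CON). Plod2, the lysyl hydroxylase of collagen ends, was higher, at 72.9 CPM in IR and 27.5 CPM in CON. The cross-linking enzyme gene Loxl2 had 549 CPM in IR and 330 CPM in CON, a ratio of 1.67 (1.24 to 2.26), and the receptor gene Itgb1, the beta 1 integrin subunit, had 875 CPM in IR and 450 CPM in CON, a ratio of 1.94 (1.52 to 2.51). Col12a1, a fibril-associated collagen, had 21 UMIs in IR and 3 in CON, a ratio of 3.57 (1.07 to 18.7), and Mmp3, a matrix protease, had 1 UMI in IR and 22 in CON, a ratio of 0.0232 (0.000562 to 0.143).

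In FAP-like cells at 56 days, Loxl2 and Itgb1 lay on the other side. Loxl2 had 187 CPM in IR and 381 CPM in CON, a ratio of 0.492 (0.327 to 0.718), and Itgb1 had 334 CPM in IR and 742 CPM in CON, a ratio of 0.450 (0.334 to 0.596). Itga11, a collagen receptor subunit, had a ratio of 0.513 (64.4 CPM in IR and 126 CPM in CON). Of 6 measured export genes, 3 were lower and 0 higher, beside the 21.3% lower and 18% higher of all measured genes: Mia3 (146 CPM in IR and 239 CPM in CON) and Mia2 (52.7 CPM in IR and 114 CPM in CON), which load procollagen into transport carriers, and Sec23a, a coat subunit of those carriers (23.4 CPM in IR and 66.9 CPM in CON). The export list's median log2 ratio was -0.50, against 0.01 over all measured genes. The chaperone gene Hspa5 had 580 CPM in IR and 1064 CPM in CON, a ratio of 0.545 (0.435 to 0.677), and was within the folding list, where 4 of 15 genes were lower and 3 higher, near those shares. The fibril-associated collagens Col14a1 (480 CPM in IR and 760 CPM in CON) and Col12a1 (1 UMI in IR and 22 in CON) were lower, while Bgn, which encodes the proteoglycan biglycan, was higher at 826 CPM in IR and 509 CPM in CON, a ratio of 1.62 (1.31 to 2.00). Mmp14, a membrane-bound collagenase, had 264 CPM in IR and 162 CPM in CON, a ratio of 1.63 (1.10 to 2.37).

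In Schwann-like cells, Col3a1 moved most and in opposite directions at the 2 times. At 24 hours it had 146 CPM in IR and 557 CPM in CON, a ratio of 0.263 (0.193 to 0.356), and at 56 days it had 339 CPM in IR and 53.1 CPM in CON, a ratio of 6.39 (3.38 to 13.1). These ratios rest on 76 UMIs in IR and 107 in CON at 24 hours and on 55 in IR and 12 in CON at 56 days. The CON libraries differed from each other by more than either IR library differed from its CON, since CON at 56 days had 0.0953 times the Col3a1 level of CON at 24 hours. The share of Schwann-like cells with a Col3a1 UMI was 18.5% in IR and 40.4% in CON at 24 hours, and 26.4% in IR and 9.84% in CON at 56 days, above the immune cells at both times. After each cell was thinned to 1000 UMIs, these shares were 7.83% in IR and 22.4% in CON, and 11.9% in IR and 3.64% in CON, the same order. Thinning left out 9 shallower cells in IR and 3 in CON at 24 hours and 11 in IR and 6 in CON at 56 days, and 0% to 0.493% of thinned immune cells had a Col3a1 UMI. The Schwann markers themselves summed to 25288 CPM in IR and 41685 CPM in CON at 24 hours, and to 26212 CPM in IR and 30418 CPM in CON at 56 days, and their part in the result was not tested. With every cell given equal weight the ratio at 24 hours was 0.683, and without the cell with most UMIs of the 6 genes the ratio at 56 days was 3.90.

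The remaining members varied less in Schwann-like cells. Col1a1 had 341 CPM in IR and 630 CPM in CON at 24 hours, a ratio of 0.541 (0.427 to 0.687), and 271 CPM in IR and 217 CPM in CON at 56 days, a ratio of 1.25 (0.814 to 1.92). Among the cells with no marker of another list its ratio at 24 hours was 0.931. Col1a2, the leading gene, had 1227 CPM in IR and 1266 CPM in CON at 24 hours, a ratio of 0.969 (0.835 to 1.13), and 1221 CPM in IR and 850 CPM in CON at 56 days, a ratio of 1.44 (1.17 to 1.76). Col5a3 had 435 CPM in IR and 281 CPM in CON at 24 hours, a ratio of 1.55 (1.15 to 2.12), and 271 CPM in IR and 248 CPM in CON at 56 days. Among the 54 IR and 24 CON cells with no marker of another list, the Col5a3 ratio at 24 hours was 0.965, on the other side of 1. Col5a1 and Col5a2 lay within counting error of CON at both times. At 24 hours 1 of the 6 genes was at least 1.5-fold higher and 2 lower, against 22.5% higher and 13% lower of 5804 measured genes. At 56 days 2 were higher, Col3a1 and Col5a2, and 0 lower, against 16.4% higher and 14.9% lower of 3742 measured genes.

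Myelinating and non-myelinating Schwann cells wrap large and small nerve fibres, and the cells were split by 6-gene lists of each, leaving out those that matched both equally. Col1a1 was higher in myelinating-type than in non-myelinating-type cells in 3 of the 4 libraries: the myelinating type had 698 CPM and the other 60.9 CPM in IR at 24 hours, 891 CPM and 268 CPM in CON at 24 hours, and 332 CPM and 42.4 CPM in CON at 56 days. In IR at 56 days the myelinating type had 260 CPM and the other 307 CPM. Col5a3 and Col5a2 were higher in non-myelinating-type cells in all 4 libraries, Col5a3 at 651 CPM in IR and 500 CPM in CON at 24 hours and 451 CPM in IR and 268 CPM in CON at 56 days, against 170 to 231 CPM in myelinating-type cells. In CON at 56 days the Col5a3 difference lay within counting error, at 162 to 419 CPM (19 UMIs) against 158 to 326 CPM (32 UMIs). Col5a2 at 56 days rested on 5 to 9 UMIs per type and library, with overlapping intervals. The Col3a1 difference was widest in non-myelinating-type cells, with 42.2 CPM in IR and 875 CPM in CON at 24 hours and 819 CPM in IR and 14.1 CPM in CON at 56 days. It came from few cells: 4 of 37 in IR and 7 of 15 in CON at 24 hours, and 6 of 17 in IR and 1 of 14 in CON at 56 days had a Col3a1 UMI. FAP markers in Schwann-like cells summed to 61.6 CPM in IR and 292 CPM in CON at 24 hours and to 358 CPM in IR and 509 CPM in CON at 56 days, with 2 to 6 of the 12 markers found. They came mostly from Mfap5 (19 UMIs in IR and 50 in CON at 24 hours, 56 in IR and 81 in CON at 56 days), with Pdgfra, Lum, Dpt, Clec3b, Pi16 and Scara5 at 0 UMIs in all 4 libraries and Dcn at 0 to 13 UMIs. This sum was on the same side as Col3a1 at 24 hours, lower in IR, and on the other side at 56 days. The 11 mural markers in Schwann-like cells summed to 204 CPM in IR and 109 CPM in CON at 24 hours and to 253 CPM in IR and 88.5 CPM in CON at 56 days, with 1 to 4 markers found, on the other side from Col3a1 at 24 hours and on the same side at 56 days. The gate allowed at most 1 marker of either list per cell, which limits both sums. The part of either list in the Col3a1 values was not tested.

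Among the other collagen genes of Schwann-like cells, Col27a1, a further fibrillar collagen, took the same sides as Col3a1, with 216 CPM in IR and 391 CPM in CON at 24 hours (ratio 0.552, 0.409 to 0.750) and 240 CPM in IR and 124 CPM in CON at 56 days (ratio 1.94, 1.16 to 3.27). At 24 hours 6 of 13 folding genes, 4 of 6 export genes and 3 of 3 collagen receptor genes were at least 1.5-fold higher and 0 of them lower, beside the 22.5% higher and 13% lower of all measured genes. These included Hspa5 (586 CPM in IR and 354 CPM in CON), the chaperone genes P4hb (210 CPM in IR and 135 CPM in CON) and Pdia4 (154 CPM in IR and 88.5 CPM in CON), and the integrin genes Itga1 (699 CPM in IR and 370 CPM in CON), Itga2 (181 CPM in IR and 93.8 CPM in CON) and Itgb1 (1009 CPM in IR and 526 CPM in CON). Postn had 1516 CPM in IR and 589 CPM in CON, a ratio of 2.58 (2.11 to 3.17), opposite to FAP-like cells. Mmp2, which encodes the gelatinase of type IV and denatured collagens, was higher in IR at both times, with 293 CPM in IR and 67.7 CPM in CON at 24 hours and 148 CPM in IR and 48.7 CPM in CON at 56 days. Itgb1 at 56 days had 444 CPM in IR and 748 CPM in CON, a ratio of 0.594 (0.444 to 0.787).

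In mural-like cells Col3a1 was the member furthest from CON at 56 days, but its direction depended on which cells were counted. It had 757 CPM in IR and 571 CPM in CON at 24 hours, a ratio of 1.33 (1.02 to 1.74), and 551 CPM in IR and 1010 CPM in CON at 56 days, a ratio of 0.545 (0.439 to 0.675). The 24-hour ratio was 0.904 with cells weighted equally and 0.462 among cells with no marker of another list, and the 56-day ratio was 1.12 when a cell was assigned to its leading marker list instead. The sum of the 6 genes had a ratio of 1.11 (0.951 to 1.31) at 24 hours and 0.725 (0.623 to 0.843) at 56 days, where the leading-list assignment gave 1.27. Col1a2 was 295 CPM in IR and 431 CPM in CON at 24 hours, a ratio of 0.685 (0.498 to 0.956), and Col5a3 was 233 CPM in IR and 149 CPM in CON, a ratio of 1.56 (0.949 to 2.72). Col1a1, Col5a1 and Col5a2 lay within counting error of CON at both times. At 24 hours 1 of the 6 genes was at least 1.5-fold higher and 0 lower, against 16.6% higher and 18.7% lower of 5173 measured genes, and at 56 days 0 were higher and 2 lower, against 16.2% higher and 16.1% lower of 3929.

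Within the mural-like cells the fibrillar collagen level was higher in the pericyte type than in the smooth muscle type. Cells with more pericyte than smooth muscle markers had 2940 CPM in IR and 2137 CPM in CON at 24 hours, and 2527 CPM in IR and 3207 CPM in CON at 56 days. Cells with more smooth muscle markers had 491 CPM in IR and 713 CPM in CON at 24 hours, and 592 CPM in IR and 764 CPM in CON at 56 days, below the pericyte type in all 4 libraries. The few cells that matched both lists equally had 3015 CPM in IR (12 cells) and 3899 CPM in CON (4 cells) at 24 hours, and 5130 CPM in IR (7 cells) and 2730 CPM in CON (3 cells) at 56 days, above the pericyte type in all but CON at 56 days. Of the 320 UMIs of the 6 genes in IR at 56 days, pericyte-type cells held 127, smooth muscle-type cells 115 and the cells matching both 78. Pericyte-type cells were 54.9% of mural-like cells in IR and 61.1% in CON at 24 hours, and 35.1% in IR and 44.0% in CON at 56 days. Their part in the ratios over all mural-like cells was not tested. The gate allowed a mural-like cell at most 1 FAP marker, so low FAP marker levels were set by it. The whole FAP list summed to 27.0 to 49.0 CPM. Pdgfra, Lum and Pi16 were at 0 UMIs in all 4 libraries. Mfap5 had 16 UMIs in IR and 1 in CON at 24 hours, and 3 in IR and 9 in CON at 56 days. The tenocyte marker Fmod had 18 UMIs in IR and 9 in CON, then 6 in IR and 8 in CON. Tnmd had 17 in IR and 0 in CON, then 8 in IR and 4 in CON. The part of these lists in the collagen values was not tested.

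Mural-like cells of IR also held more of several matrix genes at 24 hours. Mmp2 had 102 UMIs in IR and 0 in CON, at least 7.71-fold higher against a floor of 3 UMIs, and P3h1, a prolyl 3-hydroxylase gene, had 20 UMIs in IR and 0 in CON, at least 1.51-fold higher. The prolyl hydroxylase gene P4ha1 had 42 UMIs in IR and 2 in CON, a ratio of 4.76 (1.24 to 40.6). Bgn (152 CPM in IR and 58.0 CPM in CON), Thbs1, the gene of the matrix protein thrombospondin 1 (242 CPM in IR and 108 CPM in CON), Mia2 (105 CPM in IR and 41.4 CPM in CON) and Itgb1 (2099 CPM in IR and 1159 CPM in CON) were higher. Pcolce, which enhances the trimming of procollagen ends, was lower, at 171 CPM in IR and 298 CPM in CON. At 56 days Fn1, the fibronectin gene, had 69.3 CPM in IR and 17.8 CPM in CON, and Bgn had 223 CPM in IR and 111 CPM in CON. Postn (104 CPM in IR and 343 CPM in CON), P4ha1 (34.7 CPM in IR and 84.6 CPM in CON), Hspa5 (281 CPM in IR and 445 CPM in CON) and Itgb1 (1017 CPM in IR and 1643 CPM in CON) were lower in IR.

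In endothelial-like cells only Col5a2 stood clear of the immune level in every library. It had 25.1 CPM in IR and 15.3 CPM in CON at 24 hours, a ratio of 1.64 (1.05 to 2.65), and 16.7 CPM in IR and 16.2 CPM in CON at 56 days, a ratio of 1.03 (0.614 to 1.72). These levels rest on 119 UMIs in 50 cells of IR and 24 UMIs in 9 cells of CON at 24 hours, and on 29 UMIs in 14 cells of IR and 38 UMIs in 19 cells of CON at 56 days. The share of cells with a Col5a2 UMI was 3.68% in IR and 2.10% in CON at 24 hours, and 3.19% in IR and 2.62% in CON at 56 days, against 0% to 0.528% of immune cells, which had medians of 3274 to 4607 UMIs per cell and so were not shallower than the 2910 to 3414 UMIs of endothelial-like cells. Col5a2 rested on few cells, and the 24-hour ratio ran from 1.62 to 3.08 over the settings tried. At 24 hours 3 of the 6 genes were measured, with 1 at least 1.5-fold higher (Col5a2) and 0 lower, against 14.8% higher and 6.95% lower of 10710 genes. At 56 days only Col5a2 was measured and it passed neither limit, against 12.5% higher and 12.8% lower of 9964 genes.

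Endothelial-like cells showed differences in matrix genes other than the fibrillar collagens. At 56 days Sparc had 3698 CPM in IR and 1954 CPM in CON, a ratio of 1.89 (1.82 to 1.97), Fn1 had 208 CPM in IR and 88.0 CPM in CON, and Thbs1 had 33.4 CPM in IR and 8.50 CPM in CON. Fkbp10 had 25.3 CPM in IR and 4.68 CPM in CON, a ratio of 5.41 (2.75 to 11.6), and Mmp14 had 16.1 CPM in IR and 2.98 CPM in CON, a ratio of 5.41 (2.31 to 14.7). Plod2, the collagen glycosylation gene Colgalt1, Pcolce and the protease inhibitor gene Timp2 were higher by 1.57-fold to 1.79-fold, and P4ha1, Mia2 and Itga1 were lower, at ratios of 0.628 to 0.665. At 24 hours Itga2 (11.4 CPM in IR and 2.55 CPM in CON), Plod2 (35.4 CPM in IR and 16 CPM in CON), Thbs1 (21.3 CPM in IR and 12.1 CPM in CON) and Itgb1 (1294 CPM in IR and 802 CPM in CON) were higher, and Bgn was lower (47.6 CPM in IR and 74.7 CPM in CON). In these cells the FAP marker list summed to 13.1 CPM in IR and 21.1 CPM in CON at 24 hours and to 21.3 CPM in IR and 14.9 CPM in CON at 56 days. The mural list summed to 307 CPM in IR and 272 CPM in CON at 24 hours and to 111 CPM in IR and 159 CPM in CON at 56 days, and the part of either in these results was not tested.

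Over all class and library combinations, the genes whose level followed the sum of the 6 collagens most closely were Islr, Antxr1, Lama2, Thbs2 and Sdc2. Their Pearson correlations of log2(CPM + 1) were 0.98, 0.97, 0.97, 0.97 and 0.96 over 23 combinations of a class with at least 25 cells and a library, among 11390 genes. The combinations share 4 libraries and FAP-like cells hold the high end, so the values describe cell-class patterns. Sdc2 encodes a cell surface proteoglycan, Lama2 a laminin chain of the muscle basement membrane and Thbs2 a thrombospondin.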

How the data were processed

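Hindlimb muscle cells of the 4 libraries were profiled with 10x Genomics single-cell RNA sequencing. The submitters' processing notes name Cell Ranger 5.0.0 and the mm10 build, and the authors deposited raw UMI counts per gene and barcode. The quality filter required 200 genes, 500 UMIs and a mitochondrial share of UMIs no higher than 20% (it kept 2539 of 2763 in IR and 1336 of 1471 in CON at 24 hours, 969 of 1030 in IR and 1700 of 1822 in CON at 56 days). No doublet caller was run and free RNA was not removed, so mixed cells may remain. Each class needed at least 3 of its own markers and at most 1 of any other list, and was named by resemblance.

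UMIs of the cells of a class were summed per library and divided by the class total. Levels carry exact Poisson, shares exact binomial and ratios exact conditional binomial 95% intervals. A gene was measured at 20 summed UMIs, and list ratios used a prior count of 0.5. Cells of 1 library are not replicates, so no p-value was computed. The pathway genes named were, for each list, class and time, up to 4 measured genes at least 1.5-fold apart whose interval leaves out 1, ranked by the interval bound nearest to 1. The 5 genes most like the sum were ranked by correlation. The members and lists were chosen with earlier results of these data known. Alternatives changed the gate, the filter, the weighting, the scaling and the depth. The ratio code was tested on simulated counts. Promoter sequences came from RefSeq (4 of 6 members listed, 1 of them left out because its window overlaps an annotated exon). Python 3.11.15, numpy 2.4.6, scipy 1.17.1 and pandas 2.3.3 were used.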

Additional observations from a re-analysis of the deposited data

Results flagged for a closer look

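Several values took opposite sides at the 2 times, and the difference between the times was not tested. The sum of the 6 genes in Schwann-like cells had an IR over CON ratio of 0.804 at 24 hours and 1.52 at 56 days. Col3a1 in Schwann-like cells had a ratio of 0.263 at 24 hours and 6.39 at 56 days, and in mural-like cells it had 1.33 at 24 hours and 0.545 at 56 days.

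Barcodes outside the comparisons also held collagen. In cells outside every class at 24 hours the sum was 5971 CPM in IR (624 cells) and 4584 CPM in CON (279 cells), a ratio of 1.30, on the other side of 1 from FAP-like cells. Split by markers, it was lower in IR in each group found in both libraries. With at least 3 markers of the FAP and tenocyte lists it was 37332 CPM in IR (26 cells) and 40430 CPM in CON (4 cells). It was 16005 CPM in IR and 16998 CPM in CON with the FAP list alone, and 554 CPM in IR and 659 CPM in CON with neither. Cells with the tenocyte list alone numbered 5 in IR and 0 in CON. The part of this make-up in the ratio was not tested. At 56 days it was 4052 CPM in IR (216 cells) and 5585 CPM in CON (295 cells), a ratio of 0.725, on the same side as FAP-like cells. In the barcodes removed by the quality filter at 24 hours it was 532 CPM in IR (197 UMIs in 224 barcodes) and 73.3 CPM in CON (23 UMIs in 135 barcodes), a ratio of 7.26, and at 56 days 99 CPM in IR (17 UMIs in 61 barcodes) and 276 CPM in CON (77 UMIs in 122 barcodes), a ratio of 0.359.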

How the results depend on the processing

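A ratio is said to change side where its counting interval left out 1 and the recomputed ratio lay across 1. Among the recomputed ratios of the summed genes, 66 stayed within counting error, 13 moved and 1 changed side, and among those of single genes 341 stayed, 54 moved and 4 changed side. A further 4 ratios of sums and 49 of single genes lay across 1 from a value whose interval held 1, and are counted among those that stayed or moved. With at least 2 or at least 4 own markers, or without the filter on barcodes, every ratio stayed, but these settings kept similar cells. FAP-like cells of IR at 24 hours then numbered 56, 47 and 55, against 52. Among cells with no marker of another list, 17 single-gene ratios stayed, 20 moved and 2 changed side. With the leading-list assignment 5 sums stayed, 2 moved and 1 changed side, and 37 single-gene ratios stayed. The FAP-like sum at 24 hours stayed lower in IR throughout, with ratios of 0.526 with cells weighted equally, 0.591 among cells with no marker of another list, 0.614 without the cell with most member UMIs, 0.641 when scaled without mitochondrial, ribosomal, haemoglobin and member genes, 0.647 when thinned to 1000 UMIs, 0.697 without the 5% of cells with most UMIs and 0.710 with the leading-list assignment. That assignment was chosen after seeing the data. At 56 days it gave 0.753, and cells with no marker of another list gave 0.586. With cells weighted equally, the Schwann-like sum at 24 hours was 0.908 and the mural-like sum 0.951 at 24 hours and 0.939 at 56 days. The mural-like sum was 0.511 at 24 hours among cells with no marker of another list, across 1 from a value whose interval held 1, and 1.27 at 56 days with the leading-list assignment, the 1 sum that changed side in the sense above. The single genes that changed side in that sense were Col3a1 in mural-like cells at 24 hours (0.904 with equal weights and 0.462 among cells with no marker of another list) and at 56 days (1.12 with the leading-list assignment), and Col5a3 in Schwann-like cells at 24 hours (0.965 among cells with no marker of another list). The cause was not tested. That gate left 18 FAP-like cells in IR and 11 in CON at 24 hours.

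With at least 50 UMIs instead of 20, fewer pathway genes were tested, and the counts at least 1.5-fold apart were 3 instead of 9 higher and 3 instead of 8 lower in FAP-like cells at 24 hours, and 9 instead of 14 lower at 56 days. In Schwann-like cells they were 10 instead of 18 higher at 24 hours, and 2 instead of 8 higher and 1 instead of 3 lower at 56 days. In mural-like cells they were 1 instead of 5 lower at 24 hours, and 1 instead of 4 higher and 3 instead of 5 lower at 56 days. Over all genes with 50 UMIs in FAP-like cells, 295 were higher and 173 lower of 1823 at 24 hours, and 404 lower of 2321 at 56 days. In Schwann-like cells 531 of 2849 were higher at 24 hours, and 173 were higher and 127 lower of 1406 at 56 days. In mural-like cells 318 of 2324 were lower at 24 hours, and 219 were higher and 160 lower of 1581 at 56 days. No paired analysis was possible because each group is 1 library and no test between groups was made. Depth limits the type V genes most outside FAP-like cells: Col5a1 in mural-like cells at 56 days rested on 8 UMIs in IR and 12 in CON, and its interval ran from 0.204 to 1.53.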

Other observations

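Much of the collagen lay in cells that matched more than 1 marker list and so belonged to no class above. Cells outside the classes held 56.5% of the fibrillar collagen UMIs in IR and 41% in CON at 24 hours, and 62.4% in IR and 50.5% in CON at 56 days. Of these, cells with at least 3 markers of both the FAP list and the tenocyte (tendon cell) list were few, 26 in IR and 4 in CON at 24 hours and 13 in IR and 28 in CON at 56 days. They held 38.5% of the library's fibrillar collagen UMIs in IR and 12.6% in CON at 24 hours, and 29.2% in IR and 22.9% in CON at 56 days. Their level was 37332 CPM in IR and 40430 CPM in CON at 24 hours, and 29990 CPM in IR and 24871 CPM in CON at 56 days. Type I led in them: they had 0.167 Col3a1 UMIs per Col1a1 UMI in IR and 0.157 in CON at 24 hours, and 0.293 in IR and 0.236 in CON at 56 days, against 1.80 to 2.92 in FAP-like cells. Outside cells with at least 3 FAP but fewer than 3 tenocyte markers held 12.5% in IR and 23.7% in CON at 24 hours. At 56 days they held 17.4% in IR and 21.2% in CON, with a sum of 9171 CPM in IR and 12897 CPM in CON. Their Col3a1 UMIs per Col1a1 UMI were 2.64 in IR and 2.15 in CON at 24 hours, and 1.12 in IR and 1.77 in CON at 56 days.

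Satellite-like cells, the muscle stem cells, were read with the leading-list assignment, which gave 69 cells in IR and 33 in CON at 24 hours and 27 in IR and 72 in CON at 56 days. Col3a1 led in them, with 1102 CPM in IR and 1363 CPM in CON at 24 hours and 616 CPM in IR and 897 CPM in CON at 56 days. Col1a2 was near 0 there, with 6 UMIs in IR and 5 in CON at 24 hours and 0 in both libraries at 56 days. Col5a1, Col5a2 and Col5a3 were found in all 4 libraries, with 5 to 64 UMIs each. Erythroid-like cells of CON at 56 days had 34 Col5a1 UMIs in 17 of 87 cells, against 6 UMIs in 3 of 24 cells in IR at 56 days, and the other 5 members gave 2 UMIs in each of these libraries.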
